A study of Mus musculus with 13 samples.

Results

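Skor1, Tmem130, Elmod1, Lamp5 and Rps4l are 5 genes selected on their array signal: in mouse Ptch1 medulloblastomas it lay among the farthest below that in normal developing hindbrain tissue. They are covered by 6 of the 45037 probe sets that are not controls, and each of the 5 genes has 1 probe set among the 12270 genes tested. The second probe set of Skor1 did not pass the filter on low values, which asked for a signal above the array's own median in at least 3 of 13 arrays. RNA was measured on 1 Affymetrix array per mouse in 6 Ptch1 medulloblastomas (Ptch1 MB), 3 samples of granule neuron precursor cells of the cerebellum at postnatal day 7 (P7 GNPC) and 4 samples of embryonic dorsal brainstem at E16.5 (E16.5 DBS). The tumours were primary growths from Ptch1+/- mice, and both normal groups came from wildtype mice. All tissues were untreated, and no animals were pooled. The labels give no strain, sex, age of the tumour mice, purity of the precursor cells or state of the remaining Ptch1 copy. A Ctnnb1 tumour group of the series was not analysed here.

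Medulloblastoma is a tumour of the hindbrain. Ptch1 is the receptor that holds hedgehog signalling in check, and granule neuron precursors are the cells of the young cerebellum that divide in response to Sonic hedgehog. Skor1 is a transcriptional co-repressor of the Ski family, also named Corl1 and Lbxcor1 because in mice it works with the homeobox factor Lbx1 in dorsal interneurons of the hindbrain and spinal cord. Tmem130 is a membrane protein of little-known function with a PKD domain, a fold that it shares with Pmel and Gpnmb. Elmod1 is an ELMO-domain protein that speeds up GTP hydrolysis by small GTPases of the Arf family, and in mice it is needed for the stereocilia of the inner ear's hair cells. Lamp5, also named BAD-LAMP, is the neuronal member of the lysosome-associated membrane proteins. Rps4l is listed by RefSeq as a transcribed pseudogene, and its relative Rps4x encodes a protein of the small ribosomal subunit.

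Promoters of Skor1, Tmem130 and Lamp5 are shown because these genes are low in the same tumours, so that the letters around their starts can be compared. Each window runs from 250 bases before to 50 bases after the outermost start site, 5′ to 3′ in the direction of the gene, as RefSeq gives it on GRCm38.p6. Windows for Elmod1 and Rps4l were not used here. Capitals mark E-boxes (CANNTG, which reads the same on both strands) and GC boxes (GGGCGG, or CCGCCC on the opposite strand), with no overlap between the motifs.
Skor1, chr9:63148912-63149211, minus strand: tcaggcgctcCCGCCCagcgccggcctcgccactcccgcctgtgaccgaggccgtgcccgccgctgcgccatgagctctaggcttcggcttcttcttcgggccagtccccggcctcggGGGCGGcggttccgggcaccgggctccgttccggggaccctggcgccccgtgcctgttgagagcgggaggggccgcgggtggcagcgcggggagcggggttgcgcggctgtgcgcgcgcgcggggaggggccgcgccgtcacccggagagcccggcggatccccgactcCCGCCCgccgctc
Tmem130, chr5:144761529-144761828, minus strand: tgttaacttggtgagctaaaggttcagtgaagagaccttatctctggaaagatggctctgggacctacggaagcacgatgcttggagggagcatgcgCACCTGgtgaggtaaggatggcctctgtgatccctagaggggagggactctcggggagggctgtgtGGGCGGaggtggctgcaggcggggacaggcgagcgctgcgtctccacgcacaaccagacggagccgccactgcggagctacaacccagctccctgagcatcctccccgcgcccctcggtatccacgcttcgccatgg
Lamp5, chr2:136052089-136052388, plus strand: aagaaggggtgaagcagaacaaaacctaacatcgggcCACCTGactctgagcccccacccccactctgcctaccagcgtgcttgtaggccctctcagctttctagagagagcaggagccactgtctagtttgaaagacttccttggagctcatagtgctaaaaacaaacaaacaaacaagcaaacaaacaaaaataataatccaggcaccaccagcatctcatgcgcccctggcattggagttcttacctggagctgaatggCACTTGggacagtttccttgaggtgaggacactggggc

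The 3 windows differ in composition. That of Skor1 has 79.3% G and C, an observed over expected CpG ratio of 0.975, 3 GC boxes and 0 E-boxes. The Tmem130 window has 62.3% G and C, a CpG ratio of 0.626, 1 GC box and 1 E-box, CACCTG. The Lamp5 window has 50.7% G and C, a CpG ratio of 0.157, 0 GC boxes and 2 E-boxes, of which 1 is again CACCTG. Over the 32851 promoter windows of this length in the same table, the median content was 52.7% G and C, the median CpG ratio was 0.384, 72.3% held an E-box and 35.7% held a GC box. None of the 3 windows holds TATAAA on either strand, which 13.6% of all windows do. The contrast depends on the start site used. Windows at other starts of Skor1 had 65.3% G and C, CpG ratios of 0.487 and 0.552 and 1 GC box each. A window at another start of Lamp5 held CACATG and CAGATG but not CACCTG. These matches describe letters and not bound sites.

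The array medians were 91.3 to 108.7 intensity units in tumours, 113.8 to 117.5 in GNPC and 103.6 to 108.1 in DBS, so that every tumour array lay below every GNPC array. RNA quality, taken as the mean log2 ratio of 3′ to 5′ control probe sets of Gapdh and beta-actin, was 1.33 to 1.59 in tumours, 1.11 to 1.19 in GNPC and 1.23 to 2.43 in DBS. The brightest of 3 Ptch1 probe sets read 3453.7 to 11575 in tumours, 5563.3 to 6972.4 in GNPC and 5569.3 to 6133.5 in DBS, and the labels do not say which part of the gene was inactivated, so it checks no genotype. Granule neuron precursor genes fitted the labels of the normal tissues, with 10 of 12 called higher in GNPC than in DBS. All 12 measured Hox genes were called lower, but in GNPC they summed to only 147.9 to 179. They passed the filter on low values largely through DBS, so this direction had to follow and the count is no support for the labels. Here and below, called means an adjusted p under 0.05 in limma together with a difference of at least 2-fold. Purkinje cell markers, with 7 of 12 called higher in GNPC than in DBS, and oligodendrocyte markers, with 6 of 11, were also brighter there. Of 11 microglia and macrophage markers, 9 were called higher in tumours than in GNPC, and 9 higher than in DBS.

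Skor1 had an intensity of 30.6 at the lowest, 109.1 at the median and 2296.4 at the highest in the 6 tumours, against 3730.3, 4352.4 and 4205.4 in GNPC and 6706.9, 9496, 7049.7 and 6725.6 in DBS. Every tumour lay below every normal sample, although the highest tumour came close, with the lowest GNPC sample at 1.62 times its value. The mean was 518 ± 885 in tumours (SD, n = 6), 4096 ± 325 in GNPC (n = 3) and 7495 ± 1344 in DBS (n = 4). On the log2(intensity + 18) scale of the fit, the difference was -4.25 ± 0.83 from GNPC and -5.10 ± 0.76 from DBS (SE). Without tumour 6, the highest, the tumour mean was 163 and these differences were -4.93 and -5.79. Since the genes were picked for low tumour values, the tumour differences of all 5 genes are given as a description with no test, and since 18 is added before the log, they understate the fold of dim values.

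The second Skor1 probe set read 3.6 to 46.1 in tumours, 14.4 to 43.1 in GNPC and 11.1 to 56.7 in DBS. It was dim in all 13 samples and showed none of the differences of the first. In a fit over all probe sets, its log2 difference in tumours was -0.27 from GNPC and 0.05 from DBS, and GNPC differed from DBS by 0.32 (adjusted p = 0.661, limma).

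Tmem130 read 38.3 at the lowest, 52.2 at the median and 356.8 at the highest in tumours, against 3072.2, 1577.8 and 1411.4 in GNPC and 11915, 10988.3, 12454.7 and 10493 in DBS. The 3 groups formed 3 separate levels with no overlap, and 4 of 6 tumours were below their own array's median. The mean was 111 ± 125 in tumours, 2020 ± 915 in GNPC and 11463 ± 886 in DBS, so the tumour mean was 0.0547 of that in GNPC and 0.00965 of that in DBS. The log2 difference was -4.30 ± 0.48 from GNPC and -6.88 ± 0.44 from DBS. The order of Tmem130 and Lamp5 by this difference depends on the constant added: with 18 Lamp5 was at -6.55, whereas the ratio of means was lower for Lamp5, at 0.00687.

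Elmod1 read 45.8 at the lowest, 77.8 at the median and 485.4 at the highest in tumours, against 2661.8, 2040.1 and 2043.8 in GNPC and 4704, 4489.3, 4627.7 and 4618 in DBS. The groups again did not overlap, and the 4 DBS samples lay within 1.05 times of each other. Its probe set is of a kind that can bind several transcripts of the gene. The mean was 150 ± 169 in tumours, 2249 ± 358 in GNPC and 4610 ± 89.0 in DBS. The log2 difference was -4.17 ± 0.47 from GNPC and -5.21 ± 0.43 from DBS.

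Rps4l read 5.7 at the lowest, 52.7 at the median and 95.5 at the highest in tumours, against 1192.5, 851 and 1064.7 in GNPC and 2581, 1166.3, 1987.9 and 1510.8 in DBS. All 6 tumours were below their own array's median, and the lowest GNPC sample was 8.91 times the highest tumour, the widest gap from GNPC among the 5 genes. The normal groups overlapped. The mean was 50.8 ± 43.9 in tumours, 1036 ± 173 in GNPC and 1812 ± 614 in DBS, with a log2 difference of -4.24 ± 0.50 from GNPC and -4.98 ± 0.45 from DBS. A neural role is not known from its annotation, so the description of the 5 as neural genes does not cover it.

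Lamp5 followed another pattern. It read 7.2 at the lowest, 19.7 at the median and 64.6 at the highest in tumours, against 88, 88 and 37 in GNPC and 4093.2, 3045, 4589.7 and 3437.7 in DBS. Only the DBS samples were bright: all 6 tumours and all 3 GNPC samples were below their own array's median, and tumours and GNPC overlapped. The mean was 26.1 ± 22.0 in tumours, 71.0 ± 29.4 in GNPC and 3791 ± 686 in DBS. The log2 difference was -6.55 ± 0.32 from DBS but only -1.09 ± 0.35 from GNPC. The data therefore go against the description of Lamp5 as far below both normal tissues.

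**Figure D1:**
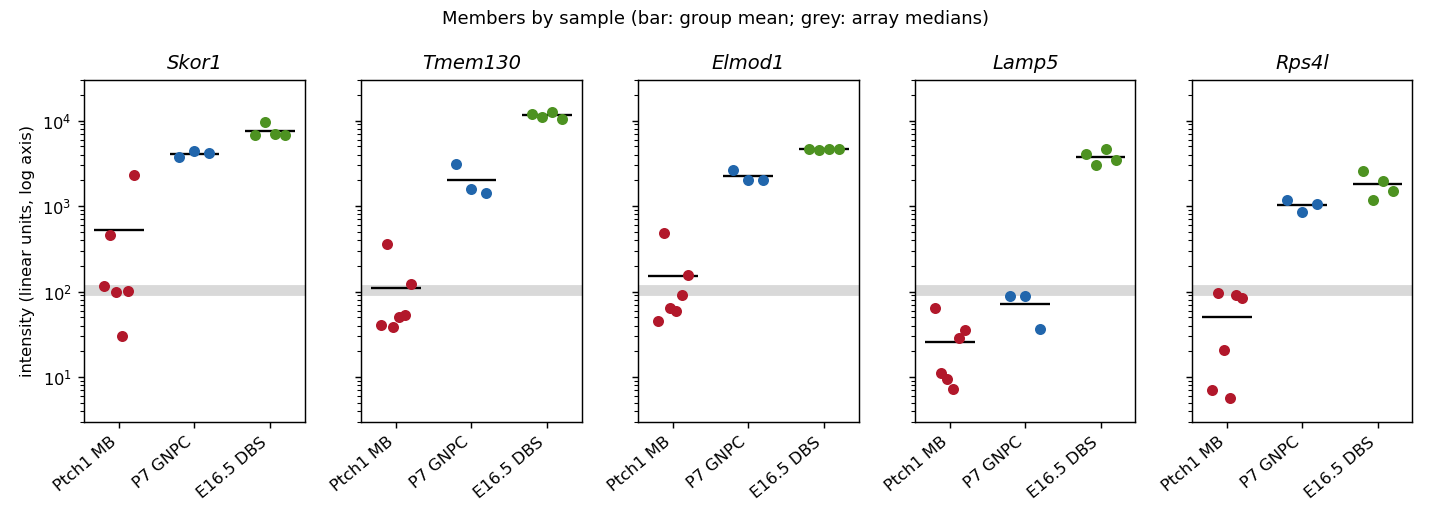
Intensity of each gene (log axis, linear intensity units) in every Ptch1 MB, P7 GNPC and E16.5 DBS sample; points are samples, bars are group means, and the grey band is the range of array medians (91.3 to 117.5). Tumours lie below both normal groups for Skor1, Tmem130, Elmod1 and Rps4l, with 1 Skor1 tumour at 2296.4, whereas Lamp5 is bright in DBS alone.

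Between tumours and GNPC, 4 of the 5 genes had groups that did not overlap, the exception being Lamp5, and 24% of all genes tested had every tumour below every GNPC sample. Between tumours and DBS all 5 were separate in this way, as were 28.9% of all genes tested. Of all genes tested, 20.8% were called between tumours and GNPC, with 14.2% lower and 6.59% higher in tumours. Against DBS the share called was 36.3%, with 20.9% lower and 15.5% higher, and 1367 genes, or 11.1%, were called lower than in both tissues. With arrays scaled to the same median, the share of higher calls against GNPC was 48.8% in place of 31.7%. Both comparisons use the same tumour arrays, and the counts of the 5 genes follow from how they were picked. When the 1367 genes were ordered by the smaller of their 2 falls, Tmem130 ranked 3, Skor1 4, Rps4l 5 and Elmod1 6, and Lamp5 ranked 1233. The genes just around them were Slc32a1, the vesicular transporter of GABA and glycine, at rank 1 with a smaller fall of -4.53, the neurofilament gene Nefl at rank 2 with -4.49, and the neuronal calcium sensor Vsnl1 at rank 7 with -4.08. Nap1l3, Tfap2b, Glra2, Spock3, Zfp618, Htr2c and Stum came after them. Among these, Tfap2b is a transcription factor of cerebellar interneurons, Glra2 a glycine receptor subunit and Htr2c a serotonin receptor. Htr2c was uneven in GNPC, at 574.9, 1080.1 and 158, where choroid plexus markers summed to 3004.5, 30910.9 and 1863.7. In DBS these markers summed to 832.3 to 29706.9. The part of choroid plexus in the Htr2c signal was not tested.

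**Figure D2:**
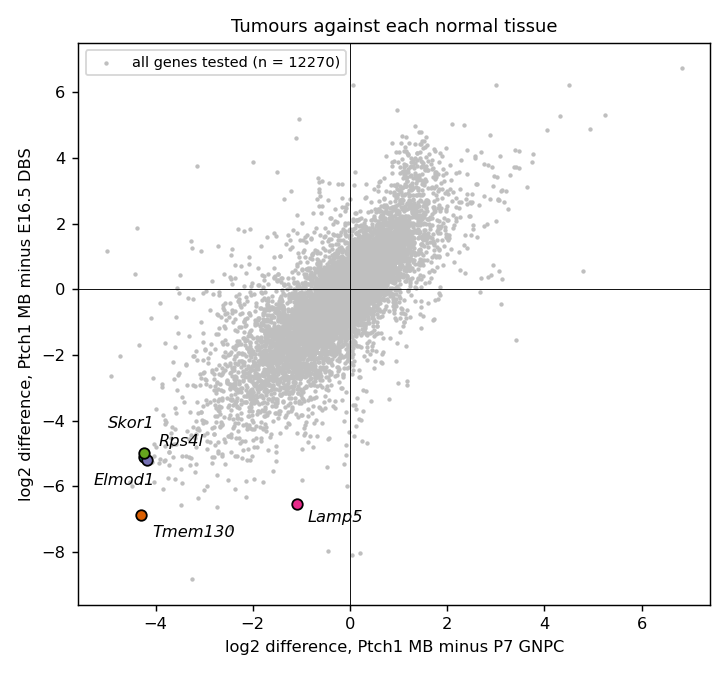
Log2 difference of Ptch1 MB minus P7 GNPC (horizontal) and of Ptch1 MB minus E16.5 DBS (vertical) for 12270 genes (grey points), with the 5 genes in colour. Skor1, Elmod1 and Rps4l lie together at horizontal values of -4.17 to -4.25, Tmem130 is lower on the vertical axis at -6.88, and Lamp5 stands apart at -1.09 on the horizontal axis.

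The comparison of the normal tissues is the one that the choice of genes did not use directly, although it shares the GNPC and DBS samples with the comparisons that it did use. Tmem130 was lower in GNPC than in DBS, with a mean in GNPC that was 0.176 of that in DBS and a log2 difference of -2.58 ± 0.52 (adjusted p = 0.00109, limma). Lamp5 passed the filter only through the DBS samples, so that it had to differ, and its GNPC mean of 0.0187 of the DBS mean and log2 difference of -5.47 ± 0.38 are given with no test. Skor1 at -0.86 ± 0.90 (adjusted p = 0.464), Elmod1 at -1.04 ± 0.51 (adjusted p = 0.111) and Rps4l at -0.75 ± 0.54 (adjusted p = 0.274) did not pass in limma. Of all genes tested, 18.4% were called between these tissues, with 9.68% lower and 8.73% higher in GNPC.

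The wide errors of the 3 genes that did not pass go with their spread in the tumours, which enters the fit of all 13 samples. With only the 7 normal samples in the fit, the differences were the same, the SE of Skor1 was 0.13, and Elmod1 was called lower in GNPC (adjusted p = 3.56e-05, limma). Skor1 then had an adjusted p of 3.67e-04 and Rps4l one of 0.0231, both at less than a 2-fold difference. Every GNPC sample was below every DBS sample for Skor1, Tmem130, Elmod1 and Lamp5 but not for Rps4l, and 27.3% of all genes tested were separate in this direction. Hox genes, which mark the hindbrain behind the cerebellum, had summed intensities of 147.9 to 179 in GNPC and 24277.9 to 34500.5 in DBS. They passed the filter largely through DBS, so the direction of that difference was fixed. Pan-neuronal genes summed to 118902 to 135306 in GNPC and 196366 to 221391 in DBS. Age and tissue cannot be told apart in this comparison.

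**Figure D3:**
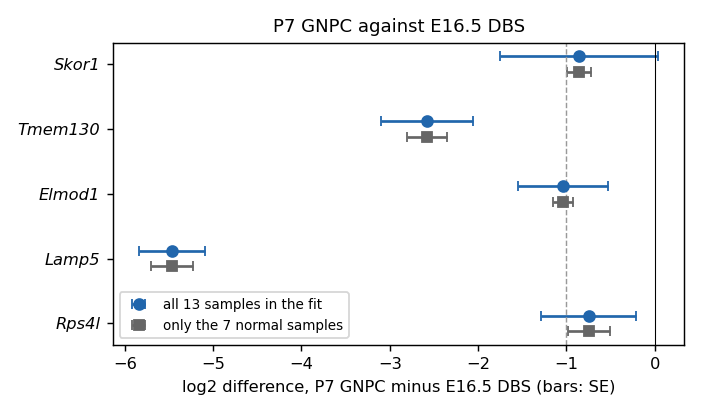
Log2 difference of P7 GNPC minus E16.5 DBS for the 5 genes, with the SE as bars, from the fit of all 13 samples (circles) and of the 7 normal samples alone (squares); the dashed line marks a 2-fold lower value in GNPC. Tmem130 (-2.58) and Lamp5 (-5.47) lie well left of that line in both fits, and the other 3 lie near it.

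The tumours differed among themselves. The SD over the 6 tumours on the log2(intensity + 18) scale was 1.98 for Skor1, 1.07 for Tmem130, 1.10 for Elmod1, 1.09 for Rps4l and 0.67 for Lamp5, against a median of 0.27 over all genes. Skor1 ranked 26 of 12270 genes by this SD. Tumour 6 had the highest Skor1 intensity at 2296.4, followed by tumour 2 at 464.9, and the other 4 tumours lay between 30.6 and 117.4. Tumour 2 was highest for Tmem130 at 356.8 and for Elmod1 at 485.4. For Rps4l it read 95.5, close to tumour 5 at 91.1 and tumour 6 at 84.9, all below their own array's median. For Lamp5 it read 11.1, and tumour 1 was highest at 64.6.

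Neuronal marker lists varied over the same tumours. The mean log2 level of the inhibitory neuron list was 8.78 in tumour 2 and 8.03 in tumour 6, and 6.67 to 7.33 in the other 4. That of the Purkinje cell list was 10.46 in tumour 2 and 9.43 in tumour 6, and 8.01 to 9.13 in the others. The list of differentiated granule neurons had 10.87 in tumour 2 and 10.10 in tumour 6, and 8.57 to 9.76 in the others. Pan-neuronal genes spanned less, with 10.64 in tumour 2, 10.40 in tumour 6 and 9.60 to 10.36 in the others. So tumour 2 was highest on all 4 lists by mean log2 level, and Tmem130 and Elmod1 were highest in the same tumour. Rps4l did not set tumour 2 apart from tumours 5 and 6. By summed pan-neuronal intensity, however, tumour 2 at 69761.7 was below tumours 1, 5 and 6, which had 70620.7, 75537.7 and 70584.3. The astrocyte and Bergmann glia list varied in a like way, with a mean log2 level of 11.29 in tumour 2, 10.80 in tumour 6 and 10.10 to 10.67 in the others. The oligodendrocyte list had 9.82 in tumour 2, but tumour 1 came second at 9.60, before tumour 6 at 8.97 and the rest at 8.46 to 8.89. By summed oligodendrocyte intensity, tumour 1 at 24492.8 was above tumour 2 at 23629. Tumour 6 came second on all 4 neuronal lists by mean log2 level, and its Skor1 signal was 4.19 above the tumour median on the log2 scale, whereas its Tmem130 and Elmod1 signals were 1.01 and 0.87 above theirs. The part of neuronal or glial content in these differences was not tested.

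**Figure D4:**
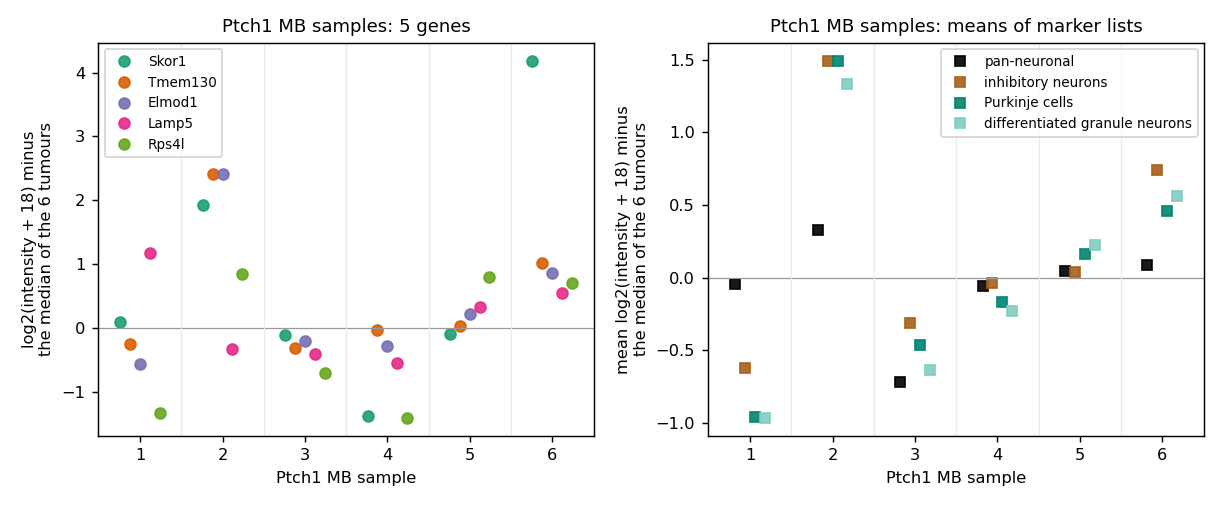
Left, log2(intensity + 18) of the 5 genes in each of the 6 Ptch1 MB samples minus the median of the 6; right, the same for the mean of 4 neuronal marker lists. Tumour 2 is high for Tmem130, Elmod1 and all 4 lists. Rps4l is nearly level in tumours 2, 5 and 6, and Skor1 alone is 4.19 above its median in tumour 6.

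Neuronal lists were low in tumours, and against GNPC so were lists of several other cell types. The granule neuron precursor list was not, with sums of 85848.5 to 97908.8 in tumours, 62719.8 to 74447.7 in GNPC and 21153.3 to 25776.7 in DBS. Of its 12 genes, 3 were called higher and 1 lower in tumours than in GNPC, and 10 higher than in DBS. With arrays scaled to 1 median, the 3 became 5 and the 1 became 0. Of 24 pan-neuronal genes, 14 were called lower in tumours than in GNPC and 21 lower than in DBS, and their median log2 difference was -1.26 and -1.99, against -0.03 and 0.00 over all genes. Summed pan-neuronal intensity was 45225.6 to 75537.7 in tumours, 118902 to 135306 in GNPC and 196366 to 221391 in DBS. Syt1, the calcium sensor of transmitter release, had a log2 difference of -3.04 from GNPC (adjusted p = 5.03e-06) and of -3.99 from DBS (adjusted p = 1.76e-08, limma). Tubb3, a tubulin that marks young and mature neurons, had -0.25 from GNPC and -0.99 from DBS and was called in neither comparison. From DBS it was just short of 2-fold (adjusted p = 0.00159, limma). It was called lower than in DBS without tumour 1, 5 or 6 or without DBS sample 2 or 4. In these bulk samples, fewer neurons and less RNA per neuron cannot be told apart.

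Inhibitory neuron genes were low as well, with 6 of 10 measured called lower in tumours than in GNPC, and 8 lower and 2 higher than in DBS. Their summed intensity was 4231.4 to 13748.5 in tumours, 16457.9 to 22529.8 in GNPC and 18782.8 to 22733.5 in DBS. Gad2, an enzyme that makes GABA, had a log2 difference of -3.80 from GNPC (adjusted p = 2.89e-05) and of -4.11 from DBS (adjusted p = 1.34e-06, limma). Of 12 measured Purkinje cell genes, 9 were called lower in tumours than in GNPC, and 5 lower and 2 higher than in DBS. The 2 higher became 1 without any single one of tumours 2, 4, 5 and 6 or of the DBS samples, and 3 without tumour 1 or 3. The list had sums of 9185 to 29679.6 in tumours, 59074.8 to 67405.5 in GNPC and 29583.5 to 32982.7 in DBS. Outside neurons, 8 of 12 astrocyte and Bergmann glia genes were called lower in tumours than in GNPC, and 5 lower and 3 higher than in DBS, with sums of 22518.1 to 46357.7 in tumours, 68500.3 to 73104.2 in GNPC and 61235.6 to 67313.3 in DBS. Without probe sets that can bind several transcripts, the 8 became 5. Of 10 genes of meninges and fibroblasts, 7 were called lower in tumours than in GNPC and 5 lower than in DBS, with sums of 5991.8 to 10373.5 in tumours, 14694 to 15924 in GNPC and 9622.7 to 13647.8 in DBS. Of 10 measured genes of endothelium and pericytes, 5 were called lower than in GNPC and 3 lower than in DBS (5 without tumour 3), with sums of 3388.5 to 8839.5 in tumours, 9721.8 to 10877.2 in GNPC and 8196.1 to 9040.5 in DBS. Of 11 measured oligodendrocyte genes, 6 were called lower than in GNPC and 2 lower than in DBS (0 without tumour 4, tumour 6 or DBS sample 3, and 1 without tumour 3, tumour 5 or DBS sample 1, 2 or 4), with sums of 12817.1 to 24492.8 in tumours, 25454.2 to 45934.6 in GNPC and 15040 to 20327.2 in DBS. Against GNPC, where 14.2% of all genes tested were called lower, the low marker signal in tumours was thus not limited to neurons. Against DBS, where 20.9% were called lower, the oligodendrocyte count lay near that share. The tumour sums of oligodendrocytes, of endothelium and pericytes, and of meninges and fibroblasts also overlapped those of DBS. The lowest value of any probe set on any array was 0.1, so a value above 0 does not show that a marker was present. The part of these cells in the low signal of the 5 genes was not tested.

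Among relatives of Skor1, the low signal was not shared by Ski and Skil. The log2 difference between tumours and GNPC was -0.34 for Ski and -0.02 for Skil, neither called. Dach2, a co-repressor with a related Ski-like domain, read 54.2 at the lowest, 61.3 at the median and 203.1 at the highest in tumours, against 537.6 to 682.9 in GNPC and 401.6 to 689.6 in DBS. It was lower in tumours, with a log2 difference of -2.80 from GNPC (adjusted p = 5.99e-06) and -2.58 from DBS (adjusted p = 1.01e-06, limma). Dach1 was called lower in both as well, at -1.69 and -1.11, although the call against DBS is lost without tumour 3 (-0.89) or without tumour 6 (-0.95), which leaves 1, and also with arrays scaled to 1 median (-0.99), with the mean of its probe sets (-0.98) or with 64 added before the log (-0.99). In all, 2 of 4 measured relatives were called lower in each tumour comparison, and Skor2 was not among those measured.

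Lbx1, the partner of Skor1, was dim but ordered in the same way as Tmem130. It read 32.7 at the lowest, 39.0 at the median and 47.0 at the highest in tumours, against 189.8 to 251.2 in GNPC and 397 to 477.8 in DBS, with no overlap. Every tumour was below its own array's median, so Lbx1 passed the filter on low values only through the normal samples. Its log2 differences in tumours, -2.03 from GNPC and -3.03 from DBS, are therefore given with no test. Of the other 6 measured genes of that list, which are Smads, 0 were called lower in tumours by limma, with 1 lower than in GNPC and 2 lower than in DBS at an unadjusted p under 0.05. Smad3 and Smad4 were called higher than in DBS; for Smad3 the call is lost without tumour 1 (0.98), which leaves 1. Of 12 measured transcription factors of dorsal hindbrain neurons, Lbx1 included, 6 were called lower and 1 higher in tumours than in GNPC, and 7 lower and 2 higher than in DBS. Of the 2 higher, 1 is left without any single one of tumours 2, 3 and 4 or DBS samples 1, 2 and 4. Among the 7 lower, Gbx1, Lmx1b and Pax8 read above the array median in DBS alone, so those calls follow from the filter. The same holds for Ptf1a, among the 6 lower than in GNPC, which was above the array median in GNPC alone. Lhx5, a factor of inhibitory interneurons, was lower in tumours, at -2.35 from GNPC and -1.70 from DBS. It was dim, at 6.9 to 36.8 in tumours, 157.6 to 207.8 in GNPC and 91.4 to 140.3 in DBS. Neurog2, a neurogenic bHLH factor, was lower as well, at -3.14 from GNPC and -2.17 from DBS. Like Lbx1, both Lhx5 and Neurog2 were below the array median in every tumour and passed the filter only through normal samples. Their differences are therefore given with no test. Lhx1, of the same list and brighter, went the other way against DBS, at 1.66 (adjusted p = 5.15e-06, limma). From GNPC it was at 0.57 and not called, with 2177.1 to 4735.6 in tumours. Pou4f1, which encodes the factor Brn3a, was higher in tumours than in GNPC, at 3.42 (adjusted p = 0.00396, limma). The tumours were uneven, at 100 to 2798.1, against 42.1 to 88.9 in GNPC and 1993.8 to 3532.6 in DBS. From DBS Pou4f1 was at -1.54 and not called, but it was called lower without tumour 2, 5 or 6.

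Elmod2 and Elmod3, the other ELMOD proteins, were not called in either tumour comparison. Elmod2 had means of 1577 in tumours, 1381 in GNPC and 2571 in DBS, and Elmod3 of 341 in tumours, 330 in GNPC and 224 in DBS. Of the 9 measured ELMO, ELMOD and DOCK genes, which act on Arf or Rac GTPases, 2 were called lower and 2 higher in tumours in each comparison. Of those higher than in GNPC, 0 are left without GNPC sample 1 and 1 without tumour 3. Dock2, 1 of the 2 higher, read above the array median in tumours alone, so it passed the filter only there and had to be higher. Elmo1, which works with Dock proteins in cell migration, was lower, at -1.60 from GNPC (adjusted p = 2.50e-04) and -1.39 from DBS (adjusted p = 1.59e-04, limma). Dock3, a neuronal member of that group, was lower at -1.77 from GNPC (adjusted p = 0.00106, limma). Among the Arf and Arl GTPases, the kind of protein that Elmod1 acts on, 0 of 9 measured were called between tumours and GNPC, and Arf2 and Arf3 were called lower than in DBS. At an unadjusted p under 0.05 in limma, whatever the fold, 0 of the 9 were higher and 2 lower than in GNPC, and their median log2 difference was -0.10.

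Lamp1, the common lysosomal relative of Lamp5, had means of 5337 in tumours, 5523 in GNPC and 5595 in DBS. Cd68, the relative of macrophages, was higher in tumours, at 1.87 from GNPC (adjusted p = 6.56e-05) and 3.23 from DBS (adjusted p = 2.55e-08, limma), beside the microglia and macrophage list already given. Of the 4 measured genes of the LAMP list, which holds Unc93b1 because human LAMP5 works with it in dendritic cells, 0 were called lower in tumours by limma, and 0 were lower at an unadjusted p under 0.05.

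Gpnmb, the measured relative of Tmem130, read 547.9 at the lowest, 1113.6 at the median and 1605.6 at the highest in tumours, against 80.1 to 267.9 in GNPC and 38.3 to 75 in DBS. Outside the tumours, only GNPC sample 2 read above its own array's median. Gpnmb thus passed the filter on low values through the tumours and had to be higher there. Its log2 differences in tumours, 2.76 from GNPC and 3.80 from DBS, were opposite to those of Tmem130 and are given with no test. Gpnmb is also made by macrophages, whose markers summed to 8143.8 to 25122.4 in tumours, 5857.4 to 6979 in GNPC and 5442.6 to 5672.1 in DBS, and their part in the Gpnmb signal was not tested.

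Rps4x, whose sequence Rps4l resembles, read 18575.1 to 27484 in tumours, 16783 to 19834.9 in GNPC and 18503.3 to 23019.5 in DBS. Its log2 difference was 0.37 between tumours and GNPC and 0.20 between tumours and DBS, neither called, so it did not share the low signal of Rps4l. Of 22 measured genes of the small ribosomal subunit, 0 were called lower in tumours by limma, 3 were called higher than in GNPC and 5 higher than in DBS. At an unadjusted p under 0.05, whatever the fold, 0 were lower in tumours, 21 were higher than in GNPC and 16 higher than in DBS. The share of all genes tested at that unadjusted threshold was not worked out. The unadjusted counts of this list and of the Smad, Arf and LAMP lists therefore have no background beside them and are a description. After scaling of all arrays to 1 median, 6 and 8 were called higher. Rps27l, a p53-induced relative of Rps27, was higher in tumours, at 1.23 from GNPC (adjusted p = 1.19e-05) and 2.59 from DBS (adjusted p = 4.58e-10, limma). The list's median log2 difference was 0.57 from GNPC and 0.47 from DBS.

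**Figure D5:**
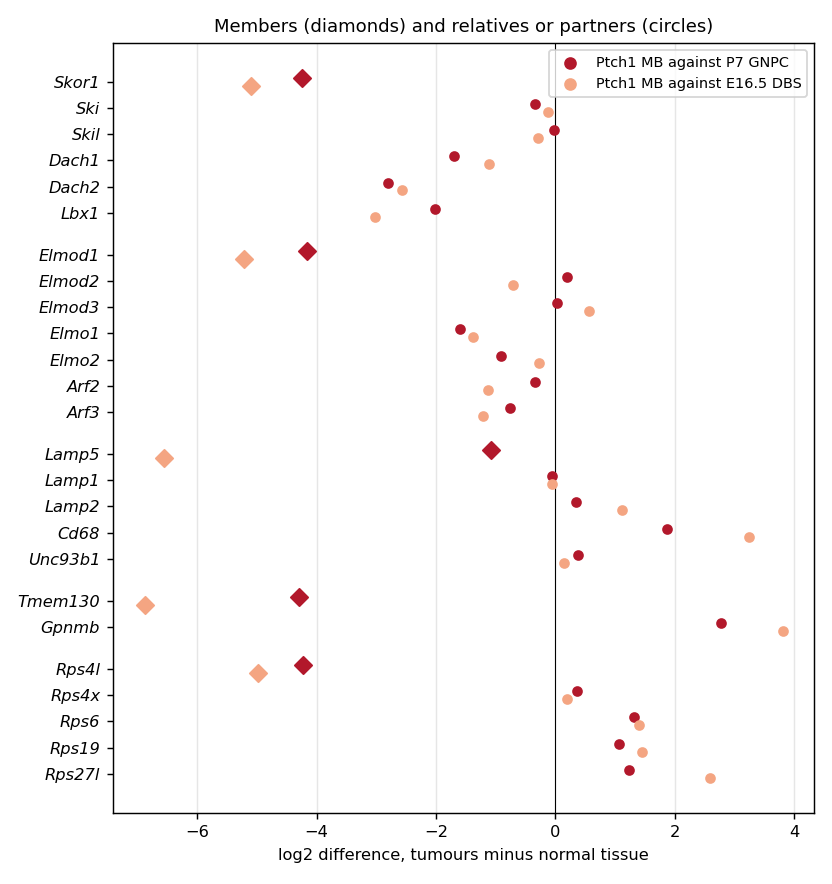
Log2 difference of Ptch1 MB minus P7 GNPC (dark) and minus E16.5 DBS (light) for each of the 5 genes (diamonds) and for chosen relatives or partners (circles). Dach2 and Lbx1 lie left of zero with Skor1, whereas Gpnmb, Cd68 and Rps27l lie right of it.

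Likeness of pattern was measured over the 13 samples as the root mean square difference of log2 values, after each gene was centred on the mean of its 3 group means. Nearest to Skor1 were Id4, an inhibitor of bHLH factors, at 0.90, Paqr9 at 0.97, Vsnl1 at 0.97 and the glutamate receptor Grm3 at 0.98. Nearest to Tmem130 were Slc6a5, the glycine transporter of glycinergic neurons, at 0.51, Zfhx4 at 0.60, Slc32a1 at 0.62 and Hpcal4 at 0.65. Slc6a5 had means of 22.3 in tumours, 372 in GNPC and 3330 in DBS, which is the same order in 3 steps.

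Nearest to Elmod1 were the extracellular proteoglycan Spock3 at 0.30, the neuronal chloride transporter Slc12a5 at 0.37, Grm3 at 0.38 and Vsnl1 at 0.39, a closer match than any gene gave for Skor1. The gene nearest to Rps4l was Elmod1, at 0.53, followed by Grm3 at 0.55, the neurofilament gene Nefh at 0.62 and Vsnl1 at 0.64. Nearest to Lamp5 were Tac1, which encodes substance P, at 0.70, Rasgrf2 at 0.74, Hoxc5 at 0.74 and Prph, a neurofilament protein of brainstem and peripheral neurons, at 0.77. Hoxc5 had means of 11.8 in tumours, 12.3 in GNPC and 1860 in DBS, and Tac1 had 76.3, 266 and 5093. These genes were picked for their likeness over the same 13 samples, so their group levels follow from that choice.

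The genes next to each of the 5 on its chromosome were limited to those measured and taken by a rule set after the 5 genes' values were known. Of 10 such neighbours, 1 was called lower and 0 were called higher in tumours than in GNPC by limma, beside the 14.2% and 6.59% of all genes tested, and 4 others had an adjusted p under 0.05 at less than 2-fold. Against DBS, 3 were called lower and 1 higher, beside 20.9% and 15.5%, and 4 others had an adjusted p under 0.05 at less than 2-fold. Slc35f2 beside Elmod1, the 1 called lower in both, had means of 51.8 in tumours, 216 in GNPC and 380 in DBS. Every tumour was below its own array's median, so Slc35f2 passed the filter on low values only through the normal samples. Its log2 differences in tumours, -1.76 from GNPC and -2.50 from DBS, are given with no test. Nptx2, which lies near Tmem130 and encodes a synaptic pentraxin, is 1 of the 3 called lower than in DBS. Outside DBS, only tumour 1 read above its own array's median, at 147.4. Nptx2 thus passed the filter through the DBS samples and had to be lower elsewhere. Its log2 differences in tumours, -2.15 from DBS and -0.41 from GNPC, are given with no test.

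Both neighbours of Rps4l were called between tumours and DBS, in opposite directions. Tmtc1 was lower, at -1.04 (adjusted p = 2.97e-05, limma), a call lost without tumour 2 (-0.98), tumour 3 (-0.99), DBS sample 2 (-0.97) or DBS sample 4 (-0.98), with arrays scaled to 1 median (-0.91) and with 64 added before the log (-0.99). Ipo8, an importin, was higher, at 1.38 (adjusted p = 2.03e-08, limma), a call lost with the mean of its probe sets (0.98), and against GNPC it stood at 0.71 (adjusted p = 1.52e-04, limma). Plcb4, a phospholipase beside Lamp5, had -0.91 from GNPC (adjusted p = 7.47e-04) and -0.98 from DBS (adjusted p = 7.88e-05, limma), just short of 2-fold, and Pak7 on the other side of Lamp5 had -0.56 and -0.39. Of the neighbours of Skor1, Pias1 had log2 differences of -0.00 from GNPC and 0.23 from DBS, and Map2k5 had 0.23 and 0.76.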

How the data were processed

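The deposited values are linear intensities, 1 column per array. Per the submitters' processing notes MAS5 was used, in a role and version not given in the sources used here, and the labels' protocols describe a 2-cycle amplification of total RNA. In the deposited files each array has a mean of 500.002 to 500.003 intensity units after 2% of values is trimmed at each end, so the authors' scaling was global. The number of arrays limits the precision. Groups follow the labels' source names. The labels name no batch; if there were batches, they cannot be told apart from the groups.

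Probe sets were kept where the platform annotation gives 1 gene symbol and at least 3 of 13 arrays read above that array's median, and the one with the highest mean stood for a gene, giving 12270 genes. Values were analysed as log2(intensity + 18), 18 being the 20th percentile of all values. One limma 3.58.1 model (R 4.3.3) with a mean per group and an intensity trend was fitted to all 13 samples, tested on simulated data beforehand, with p-values adjusted over all genes by Benjamini and Hochberg. Genes were called at an adjusted p under 0.05 and at least 2-fold. The alternatives were other pseudocounts, filters, scalings, probe set choices, variance models, samples in the fit and leaving out each sample. Named genes were the 5, genes of the lists, the 10 others that ranked highest by the smaller of both falls in tumours, the 4 nearest in pattern to each of the 5, and chromosomal neighbours. The 5 genes and the lists were chosen with earlier results of these data known.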

Additional observations from a re-analysis of the deposited data

Results flagged for a closer look

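In 5 of 12 groups of 4 or 6 samples, 1 sample of a probe set lay farther from the rest than Dixon's 95% limit, taken on linear intensities. For normally distributed values, chance passes this limit in about 1 of 20 independent groups. Linear intensities need not be so distributed, and the limit was not applied on the log2 scale of the fit. The 12 groups are not independent, since they share samples, and the tumour values were used to choose the genes, so the count is a description. Skor1 read 2296.4 in tumour 6, against 464.9 in the next tumour. Skor1 also read 9496 in DBS sample 2, against 7049.7 in the next DBS sample, and that sample had the highest 3′ to 5′ ratio of the series, a mean log2 of 2.43. The dim second probe set of Skor1 read 56.7 in DBS sample 3, against 14.1 in the next. Tmem130 read 356.8 in tumour 2, against 123.5 in tumour 6. Elmod1 read 485.4 in tumour 2, against 154.7 in tumour 6.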

How the results depend on the processing

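Every difference of the 5 genes kept its direction under the alternatives run. Between GNPC and DBS, where Lamp5 was not tested, the calls of the other 4 kept their side of the threshold except that of Elmod1, which was called with only the 2 groups compared in the fit (-1.04, adjusted p = 3.56e-05, limma). A pseudocount of 64 moved Lamp5 between tumours and DBS to -5.44, and Rps4l to -4.07 against DBS and -3.34 against GNPC; one of 4 moved Lamp5 against DBS to -7.27. Scaling every array to 1 median shifted the middle gene between tumours and GNPC to 0.21, against -0.03, and gave 1309 genes called higher in tumours (48.8% of calls) in place of 809 (31.7%). Leaving out each sample in turn gave -2.92 to -2.37 for Tmem130 between GNPC and DBS (adjusted p from 0.00141 to 0.0081, limma). Without probe sets that can bind several transcripts, Elmod1 had no value. No paired analysis was possible because the replicate numbers follow accession order and pair no samples. Dim values near the array medians limit the folds of Lamp5 and Rps4l in tumours.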
